A study of Homo sapiens with 6 samples.

Results

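The phosphatidylinositol phosphate kinases are a family of 7 genes, of which 6 could be described here in T24 cells after siRBM3 or control transfection. PIP4K2A was selected on its read counts, which were higher in the siRBM3 than in the control group of these same libraries, and PIP4K2B, PIP4K2C, PIP5K1A, PIP5K1B, PIP5K1C and PIKFYVE were added as its relatives. PIP4K2B was not analysed here, because no gene identifier of the count table was paired with that symbol. All 6 matched genes were among the 15099 of 63677 listed identifiers with enough reads to be tested. Since the difference between the groups chose PIP4K2A, its values are given as a description without a test, and the 5 matched relatives were tested.

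Phosphoinositides are lipids of the cytosolic faces of cell membranes. Each of these kinases adds 1 phosphate to the inositol ring of a lipid that already carries another. The PIP5K1 (type I) enzymes make most of the phosphatidylinositol bisphosphate of the plasma membrane, the lipid cleaved by phospholipase C and used as substrate by class I PI 3-kinases. The PIP4K2 (type II) enzymes reach a bisphosphate of the same structure from a rarer precursor and are known for roles at internal membranes, in autophagy and in stress and insulin signalling. PIKFYVE (type III) acts on endosomes and lysosomes, where its product is needed for the traffic and size of these organelles.

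T24 is a line from a high-grade human bladder carcinoma. Cells were cultured in medium with serum, transfected in serum-free medium with a lipid reagent and either a non-targeting siRNA (control) or a mixture of 2 siRNAs against the mRNA of RBM3 (siRBM3), at 25 nM for 4.5 h, and harvested on the following day. Each group had 3 libraries, numbered 1, 3 and 5 for control and 3, 4 and 5 for siRBM3. Both groups were of the same line and received siRNA, so no untransfected cells were compared. No source used here says whether the libraries of a group came from separate cultures, so p values measure the spread between these libraries only, which may be technical.

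The libraries held between 23603992 and 45098612 counts. The deepest, siRBM3 replicate 3, also had the largest mitochondrial share, 9.40%, against 1.63% to 4.15% in the other 5. RBM3, the target of the siRNA, had 225 to 368 CPM (counts per 1000000 counts of the library, with library sizes scaled by TMM) in control and 54.1 to 90.1 CPM in siRBM3 libraries, without overlap. Of 14 epithelial and urothelial markers, 8 passed the filter on low counts. KRT7 was at 2354 CPM or more in every library, but the uroplakin gene UPK2 stayed below 1.87 CPM and CDH1 below 0.73 CPM. The summed epithelial markers were at 5222 to 6018 CPM in control and 4357 to 4465 CPM in siRBM3 libraries. KRT7 made up most of each sum, with 3099 to 3240 CPM in control and 2354 to 2542 CPM in siRBM3 libraries. KRT8 was also lower in all siRBM3 libraries, while KRT18, KRT19 and PPARG overlapped between groups. GATA3 (9.31 to 12.5 and 13.6 to 14.3 CPM) and EPCAM (4.90 to 6.14 and 6.21 to 6.87 CPM) were higher in all siRBM3 libraries. The part of these markers in the values below was not tested. Of 3 immune markers 1 passed, with sums of 2.22 to 3.02 CPM in control and 2.17 to 2.61 CPM in siRBM3 libraries, and PTPRC stayed below 0.18 CPM. All 4 mesenchymal markers passed, with sums of 21511 to 25028 CPM in control and 24726 to 30639 CPM in siRBM3 libraries. FN1 made up most of these sums. The 2 endothelial markers matched summed to 27.9 to 33.7 CPM in control and 33.8 to 40.8 CPM in siRBM3 libraries, nearly all of it from CDH5, while VWF stayed below 0.69 CPM. Since the RNA is of whole cultures, fewer cells with a transcript and less of it in each cell cannot be told apart.

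The promoters of the 3 genes with the widest differences between groups are shown first. Each is the 250 bases before the first listed RefSeq start (GRCh38.p14), read on the strand of the gene, with capitals at matches to the GC box (GGGCGG), the E-box (CACGTG) and the CCAAT box (CCAAT) on either strand. Overlapping GC boxes were counted separately.
PIP4K2A, chr10:22714579-22714828, minus strand: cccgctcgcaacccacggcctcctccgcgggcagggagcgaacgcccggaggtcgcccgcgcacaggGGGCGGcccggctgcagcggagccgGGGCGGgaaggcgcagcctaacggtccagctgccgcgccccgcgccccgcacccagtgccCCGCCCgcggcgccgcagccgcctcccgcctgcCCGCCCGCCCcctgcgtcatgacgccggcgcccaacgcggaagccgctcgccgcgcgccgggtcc
PIKFYVE, chr2:208266005-208266254, plus strand: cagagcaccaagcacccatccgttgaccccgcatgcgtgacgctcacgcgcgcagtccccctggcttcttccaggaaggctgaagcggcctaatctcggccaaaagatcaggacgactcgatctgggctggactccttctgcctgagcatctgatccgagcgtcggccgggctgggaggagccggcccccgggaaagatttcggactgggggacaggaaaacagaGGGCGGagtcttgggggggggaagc
PIP5K1A, chr1:151198302-151198551, plus strand: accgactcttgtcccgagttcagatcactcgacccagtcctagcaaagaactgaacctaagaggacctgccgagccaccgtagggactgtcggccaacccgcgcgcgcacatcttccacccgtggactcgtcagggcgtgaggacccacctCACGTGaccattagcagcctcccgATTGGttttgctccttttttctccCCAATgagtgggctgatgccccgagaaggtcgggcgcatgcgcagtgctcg
The PIP4K2A stretch had 5 GC box matches and no E-box or CCAAT match, and 82.8% of its bases were G or C, against a median of 58% over 27305 promoters. PIKFYVE had 1 GC box match and 64.4% G or C. The PIP5K1A stretch had no GC box match, 1 E-box match and 2 CCAAT matches, with 60.4% G or C. Of all promoters of this length, 42.3% held a GC box match, 6.49% an E-box match and 33.0% a CCAAT match. The cAMP response element (TGACGTCA), searched on both strands, was found in 1.77% of all promoters and in none of the 6 kinase genes. A match here describes letters and not a bound site.

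PIP4K2A (ENSG00000150867) encodes the alpha isoform of the type II kinases and lies on chromosome 10 of GRCh37 from 22823783 to 23003507 on the minus strand, and shares no exon base with other annotated genes. Control replicate 1 had 31.7 CPM, control replicate 3 had 27.6 and control replicate 5 had 28.1, whereas siRBM3 replicates 3, 4 and 5 reached 49.0, 47.9 and 52.7 CPM. All siRBM3 libraries were above all control libraries, and libraries of a group lay close to each other. The mean of the siRBM3 libraries was 49.8 ± 2.51 CPM and that of the control libraries 29.2 ± 2.23 CPM (SD, n = 3 each), a 1.71-fold difference (log2 fold change 0.77 ± 0.11, where ± on a log2 fold change is its standard error). Between 722 and 2009 reads stood behind each value, for which counting alone gives a coefficient of variation of 3.56% in control and 2.62% in siRBM3 libraries. The coefficients observed were 7.64% and 5.03%. Of the other genes tested, 256 had a higher log2 fold change and 14842 a lower one. Leaving out single libraries gave log2 fold changes from 0.73 to 0.84.

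**Figure D1:**
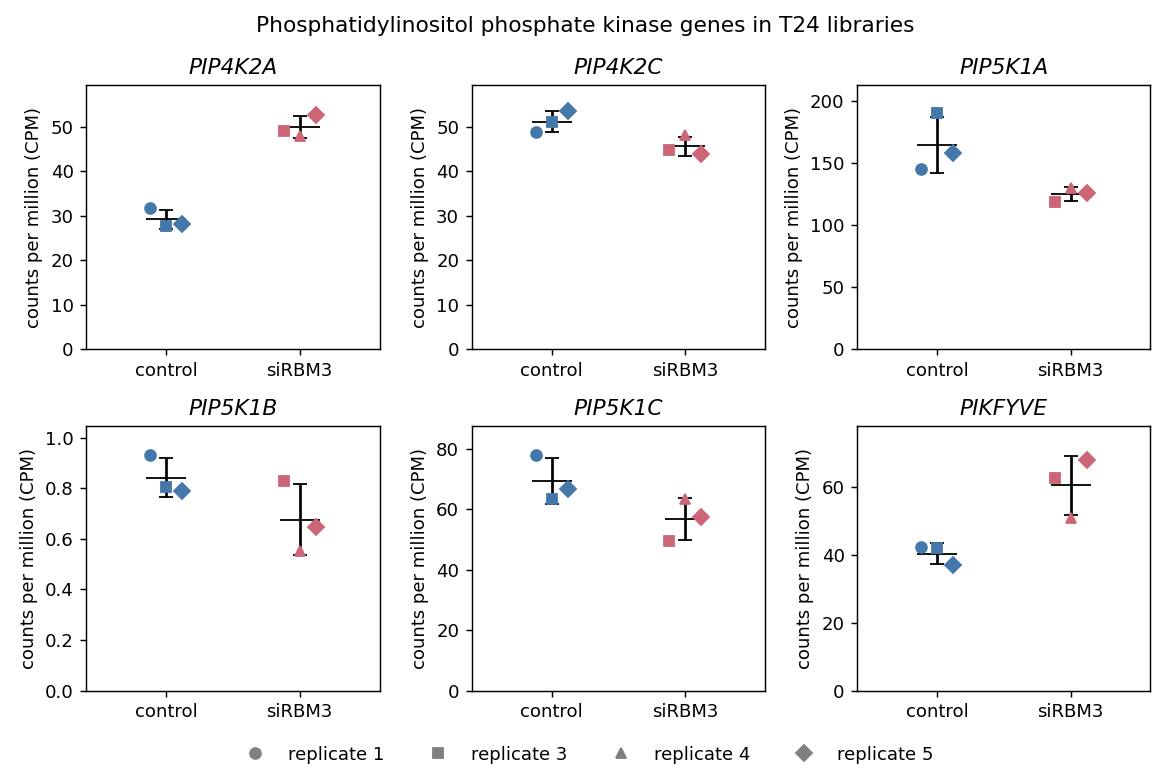
CPM of the 6 kinase genes in each library, with the mean and SD of each group (black, n = 3) and a vertical axis from 0 in every panel. For PIP4K2A and PIKFYVE all siRBM3 libraries were above all control libraries, for PIP4K2C, PIP5K1A and PIP5K1C all were below, and for PIP5K1B the groups overlapped.

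PIP4K2C (ENSG00000166908, chromosome 12, 57984957 to 57997201, plus strand), the gamma isoform, has the weakest catalytic activity of the type II kinases. It had 48.9, 51.1 and 53.5 CPM in the control and 44.8, 48.1 and 43.9 CPM in the siRBM3 libraries. The siRBM3 libraries were the lower ones, but by a small step, since siRBM3 replicate 4 (48.1 CPM) was just under control replicate 1 (48.9 CPM). The log2 fold change was -0.17 ± 0.10, and the FDR, the p of edgeR adjusted over all genes by Benjamini-Hochberg, was 0.512. On the scale of CPM per kilobase of exon, PIP4K2A was at 0.34 to 0.42 times the level of PIP4K2C in the control libraries and at 0.64 to 0.77 times in the siRBM3 libraries. On this scale PIP4K2C was the higher of these type II transcripts in all 6 libraries. In CPM, PIP4K2A was the higher in siRBM3 replicates 3 (49.0 against 44.8) and 5 (52.7 against 43.9), and the lower in the other libraries.

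PIP5K1A (ENSG00000143398, chromosome 1, 151170425 to 151222012, plus strand) encodes the alpha isoform of the type I kinases. The control libraries had 146, 190 and 159 CPM, and the siRBM3 libraries 119, 130 and 126 CPM. The groups did not overlap, and the mean and SD were 165 ± 22.9 CPM for the control and 125 ± 5.48 CPM for the siRBM3 libraries (n = 3 each). For the log2 fold change of -0.40 ± 0.11, edgeR gave an unadjusted p of 0.0078 and an FDR of 0.215. Without control replicate 3, the library with the highest value, it was -0.28. PIP5K1A has retrocopies in the genome that can share its reads. PIPSL had 21 to 32 counts and the pseudogenes PIP5K1P1 and PIP5K1P2 at most 3, against 3122 to 4977 counts of PIP5K1A. PIP5KL1, a related kinase-like gene, had 2.27 to 5.24 CPM with overlapping groups.

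PIP5K1C (ENSG00000186111, chromosome 19, 3630181 to 3700466, minus strand) encodes the gamma isoform, known from focal adhesions and synapses. Control libraries had 78.2, 63.5 and 66.7 CPM and siRBM3 libraries 49.7, 63.4 and 57.4 CPM. Control replicate 3 and siRBM3 replicate 4 were almost level, at 63.50 and 63.45 CPM. The log2 fold change was -0.29 ± 0.13 (edgeR, unadjusted p = 0.0501, FDR 0.381).

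PIP5K1B (ENSG00000107242, chromosome 9, 71320156 to 71624092, plus strand), the beta isoform, was near the limit of detection. It had 21 to 27 counts in the control and 14 to 34 in the siRBM3 libraries, or 0.79 to 0.93 and 0.55 to 0.83 CPM. The groups overlapped. Counting alone gives coefficients of variation of 21.0% and 23.0% at these counts. Its log2 fold change was -0.30 ± 0.29 (edgeR FDR 0.711), and a difference of this size was not detectable at this depth. Of its exon bases 2.36% are shared with exons of other annotated genes. Genes that overlap its span include the protein-coding gene PABIR1 on the same strand, listed at 0 counts in every library. A long non-coding RNA on the other strand, also in its span, had at most 1 count. Which of the annotated genes share the exon bases is not given here.

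The type I genes were also summed within each library as CPM per kilobase of exon. The control libraries gave sums of 38.2, 44.3 and 38.9, and the siRBM3 libraries sums of 29.2, 33.1 and 31.5. The siRBM3 libraries were below the control libraries (31.3 ± 1.96 against 40.5 ± 3.36, SD, n = 3). PIP5K1A made up most of each sum.

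PIKFYVE (ENSG00000115020, chromosome 2, 209130979 to 209223470, plus strand) is the only type III kinase. Its level was 42.4, 42.0 and 36.9 CPM in the control and 62.9, 51.0 and 68.0 CPM in the siRBM3 libraries. All siRBM3 libraries were above the control libraries, with replicate 4 the lowest of them. The control mean was 40.4 ± 3.04 CPM and the siRBM3 mean 60.6 ± 8.70 CPM (SD, n = 3 each). For the log2 fold change of 0.58 ± 0.13, edgeR gave an unadjusted p of 0.0018 and an FDR of 0.148, and the adjusted p of DESeq2 was 0.0133. A fold of 1.499 also left it just under the fold threshold of 1.5. It passed both thresholds in edgeR without a filter on low counts (log2 fold change 0.59). Leaving out single libraries gave log2 fold changes from 0.49 to 0.69.

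**Figure D2:**
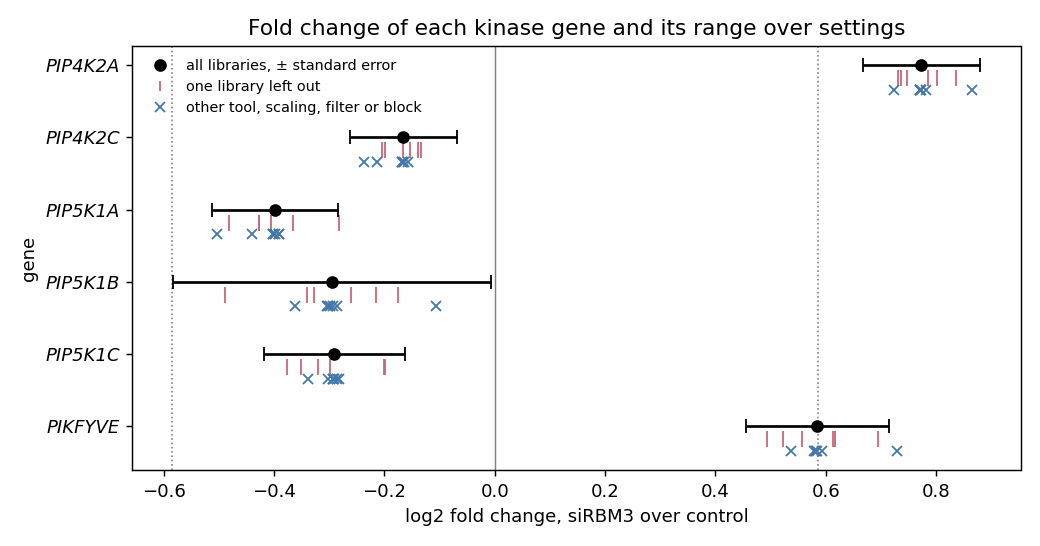
Log2 fold change (siRBM3 over control) of the 6 kinase genes with its standard error from edgeR, and below each the values with a library left out and under other tools, scalings, filters or the replicate block. The dotted lines mark a fold change of 1.5, which PIP4K2A exceeded in every setting drawn. PIP4K2A was chosen for its rise in these same libraries, so its position is a description. The sign of every gene stayed the same.

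None of the 5 relatives passed both thresholds of the study (1.5-fold, FDR 0.01) in the edgeR fit with the filter on low counts and no replicate block, where 0% of all tested genes did. RBM3, the target of the siRNA, was not called in this fit either (log2 fold change -2.14, edgeR FDR 0.082). No gene tested had a lower FDR, so a missing call here does not show that a gene was unchanged. DESeq2 called none of the relatives either, whereas it called 0.643% of the 13068 genes with an adjusted p as higher and 0.574% as lower. RBM3 was among the genes that DESeq2 called lower (log2 fold change -2.14, DESeq2 adjusted p 3.9e-14). At an unadjusted p under 0.05 in edgeR, PIKFYVE was higher and PIP5K1A lower, and over all genes 6.56% were higher and 6.58% lower. The groups of libraries were apart for 1 relative that was higher (PIKFYVE) and for 3 that were lower (PIP4K2C, PIP5K1A and PIP5K1C), beside 9.98% and 9.93% of all genes tested. The median log2 fold change of the relatives was -0.29, against -0.01 over all genes.

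Compared per length, the levels of the kinase genes spanned a wide range. In control cells PIP5K1A was at 30.5 ± 4.24 CPM per kilobase (SD, n = 3), PIP4K2C at 15.5 ± 0.70, PIP5K1C at 9.78 ± 1.08, PIP4K2A at 5.71 ± 0.44, PIKFYVE at 3.73 ± 0.28 and PIP5K1B at 0.165 ± 0.015. No neighbours in this order overlapped in their 3 libraries. In siRBM3 cells PIP5K1A was at 23.2 ± 1.01 and PIP4K2C at 13.8 ± 0.67, and PIP4K2A, with 9.76 ± 0.49, now stood above PIP5K1C, with 7.998 ± 0.972. PIKFYVE was at 5.60 ± 0.80 and PIP5K1B at 0.133 ± 0.028. Again no neighbours overlapped, although PIP4K2A (9.38 to 10.3) and PIP5K1C (6.99 to 8.93) came close. The order in each group was the same when the length of the canonical transcript was used. Against 14747 tested genes with a length, the level of PIP4K2A was above 57.7% in control and above 71.2% in siRBM3 cells, while PIP5K1B was above 5.48% and 4.02%.

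**Figure D3:**
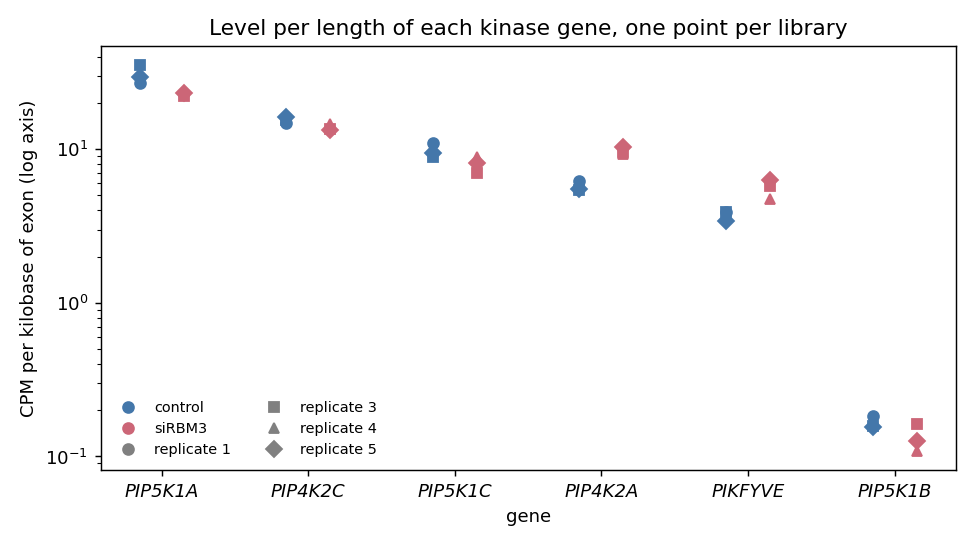
Level of each kinase gene in CPM per kilobase of exon on a log axis, with a point per library and genes in the order of their control means. PIP4K2A lies below PIP5K1C in control and above it in siRBM3 libraries, and PIP5K1B lies far below the others.

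Of the summed level per length of the 6 genes, PIP4K2A made up 7.83% to 9.84% in control and 15.2% to 16.8% in siRBM3 libraries. The share of PIKFYVE was 5.32% to 6.19% in control and 7.62% to 10.2% in siRBM3 libraries. PIP5K1A held the largest share throughout, with 42.8% to 51.0% in control and 37.9% to 39.0% in siRBM3 libraries. The sum itself was 65.4 ± 3.22 CPM per kilobase in control and 60.5 ± 1.97 in siRBM3 cells (SD, n = 3). These shares leave out PIP4K2B.

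For the expressed genes on either side of PIP4K2A the groups overlapped. The nearest expressed protein-coding genes are SPAG6, a gene of motile cilia 80630 bp away towards lower coordinates, and MSRB2, a mitochondrial methionine sulfoxide reductase 381001 bp away towards higher coordinates. SPAG6 had 0.64 to 0.65 CPM in control and 0.55 to 1.05 CPM in siRBM3 libraries. MSRB2 had 11.4 to 13.2 and 10.9 to 13.0 CPM. Their log2 fold changes were 0.42 ± 0.32 and -0.06 ± 0.14, with edgeR FDR values of 0.633 and 0.894.

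The genes with the profile nearest to that of PIP4K2A over the 6 libraries were found from log2 CPM centred on the mean of each gene. By the root mean square difference they were MSRB3 (0.061), ZNF737 (0.067), MET (0.067), CRK (0.068) and BCL2L11 (0.070), where the median over 15098 genes was 0.452. MSRB3, another methionine sulfoxide reductase, had 38.0 to 43.6 CPM in control and 67.0 to 72.8 CPM in siRBM3 libraries. MET, a receptor tyrosine kinase, had 161 to 192 and 303 to 314 CPM. CRK, an adaptor protein, had 94.2 to 103 CPM in control and 145 to 160 CPM in siRBM3 libraries. BCL2L11, which encodes the pro-apoptotic protein BIM, had 25.3 to 31.4 and 47.5 to 50.8 CPM, and the zinc finger gene ZNF737 7.19 to 9.31 and 13.4 to 15.4 CPM. These genes were picked for likeness to a gene that was itself chosen, so their levels are a description. Among the relatives PIKFYVE was nearest, with a difference of 0.150 and 75 genes nearer, and PIP5K1A was farthest, with 0.609.

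RBM3 is known to bind AU-rich elements, and the longest annotated 3′ UTR of each kinase gene on GRCh37 was therefore searched for ATTTA and TTATTTATT on the sense strand. The second motif contains the first. PIKFYVE had 15 matches to ATTTA in 3441 bases, PIP5K1B 7 in 1343, PIP5K1A 4 in 1671, PIP4K2A 3 in 2347, PIP5K1C 2 in 4530 and PIP4K2C 1 in 1812. Each was set against tested genes with a UTR of 0.8 to 1.2 times the same length. PIP5K1B (median of such genes 2, with 3.92% having more matches), PIKFYVE (6, 5.97%) and PIP5K1A (2, 27.4%) were above the median. PIP4K2A (4, 52.9%), PIP4K2C (3, 63.5%) and PIP5K1C (9, 87.0%) were below it. TTATTTATT was found in none of the 6 UTRs, and in 9.84% of the UTRs of 12149 tested genes.

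The other genes of phosphoinositide metabolism were taken from 10 lists by function, with 83 genes, of which 82 were matched and 76 tested. None passed both thresholds in edgeR or DESeq2. At an unadjusted p under 0.05 in edgeR 6 were higher and 4 lower (7.89% and 5.26% of the 76), beside 6.56% and 6.58% of all genes. The groups of libraries were apart for 10 that were higher and 5 that were lower (13.2% and 6.58%), beside 9.98% and 9.93% of all genes. The median log2 fold change was 0.02. Of the listed genes not tested, PIK3R2, a regulatory subunit of PI 3-kinase, had 0 counts in every library. It shares 76.4% of its exon bases with other genes, so 0 counts need not mean absence, and the part of this overlap was not tested.

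Among the genes that supply the substrates, CDS2, which makes the activated lipid for phosphatidylinositol synthesis, had 135 to 139 CPM in control and 151 to 169 CPM in siRBM3 libraries (log2 fold change 0.25 ± 0.09, edgeR FDR 0.279). PITPNM3, a gene of the same list at a low level, had 1.22 to 1.43 and 1.73 to 2.33 CPM (log2 fold change 0.63 ± 0.23, edgeR FDR 0.308). Of the 4 PI 4-kinases, which make the substrate of the type I enzymes, PI4K2A had 33.0 to 39.0 CPM in control and 26.8 to 31.1 CPM in siRBM3 libraries. Its log2 fold change was -0.28 ± 0.12 (edgeR FDR 0.362), and 27.9% of its exon bases overlap another gene. PI4KB, at 108 to 115 and 97.8 to 115 CPM, had the highest level per length of these kinases, with overlapping groups. CDIPT, the phosphatidylinositol synthase, had the highest control mean per length of the supply genes, and its groups also overlapped (75.0 to 91.4 and 81.9 to 87.7 CPM).

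Of the enzymes that remove phosphates, OCRL, a 5-phosphatase of endosomes, had 92.6 to 97.4 CPM in control and 67.1 to 85.1 CPM in siRBM3 libraries (log2 fold change -0.32 ± 0.11, edgeR FDR 0.276). It was the only one of 23 tested phosphatases with an unadjusted p under 0.05. INPPL1, MTMR2 and INPP4B, the members at the highest level per length of the lists of 5-, 3- and 4-phosphatases, had log2 fold changes of -0.0041, -0.10 and 0.11 with overlapping groups. In the list of the PIKFYVE complex and effectors of its product, WIPI1, an autophagy protein, had 31.4 to 43.1 and 46.7 to 54.6 CPM (log2 fold change 0.38 ± 0.14, edgeR FDR 0.308), with 28.1% of its exon bases in common with other genes. TPCN1, a lysosomal channel gene with the highest control mean per length there, overlapped between groups.

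PLCD3, a phospholipase C and so an enzyme that cleaves the bisphosphate, had the smallest FDR of the lists. It had 109 to 124 CPM in control and 159 to 171 CPM in siRBM3 libraries, and the log2 fold change was 0.46 ± 0.09. The FDR was 0.118 by edgeR and 0.0077 by DESeq2, and the fold stayed under 1.5. PLCB1 had 33.0 to 34.7 and 39.1 to 42.0 CPM (log2 fold change 0.26 ± 0.10, edgeR FDR 0.316), and PLCB3, the member at the highest level per length, overlapped between groups. PIK3R3, a regulatory subunit of PI 3-kinase, had 17.3 to 25.1 and 24.5 to 34.5 CPM (log2 fold change 0.50 ± 0.18, edgeR FDR 0.302). Of its exon bases 17.5% are shared with other genes. Among the PI 3-kinase genes of all classes, PIK3C2A (class II) had the highest control mean per kilobase of exon. Per kilobase of canonical transcript PIK3CB was slightly above it in control (7.58 against 7.46). PIK3C2A had 52.2 to 70.0 and 70.7 to 76.2 CPM (FDR 0.462 in edgeR). Downstream, AKT1 overlapped between groups with a log2 fold change of -0.09.

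Of the kinases of soluble inositol phosphates, ITPKA had 2.37 to 3.35 CPM in control and 1.02 to 1.82 CPM in siRBM3 libraries (log2 fold change -1.002 ± 0.286, edgeR FDR 0.214). ITPK1 had 57.3 to 72.7 and 48.1 to 57.3 CPM (log2 fold change -0.29 ± 0.12, edgeR FDR 0.353), with overlapping groups. IP6K2, at the highest level per length of this list, had a log2 fold change of 0.11 with overlapping groups.

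**Figure D4:**
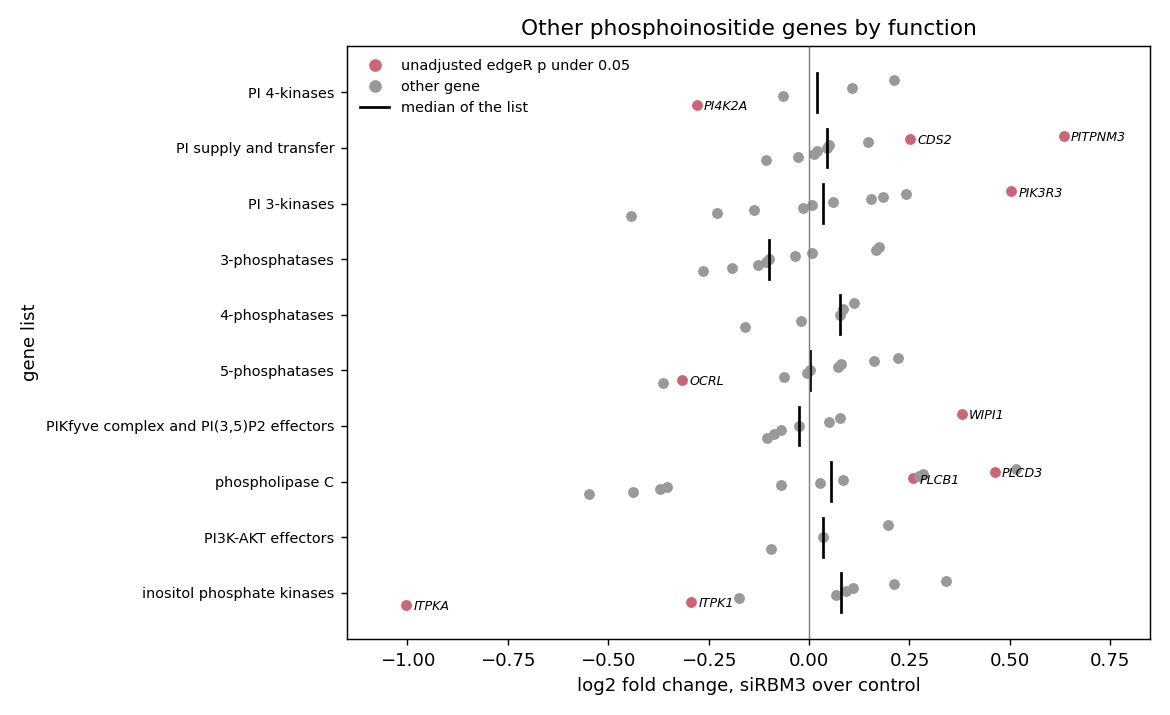
Log2 fold change (siRBM3 over control) of the 76 other phosphoinositide genes tested, by function, with the median of each list as a black bar. The 10 genes with an unadjusted edgeR p under 0.05 are named in red, 6 to the right of 0 and 4 to the left, and the list medians lie between -0.10 and 0.08.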

How the data were processed

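RNA-sequencing counts of 3 control and 3 siRBM3 T24 libraries were used. The authors prepared stranded polyA single-end libraries, trimmed reads with BBDuk, aligned them to hg19/GRCh37 with STAR 2.5.2a, marked duplicates with Picard and deposited raw featureCounts counts per Ensembl gene. For the counting step, the strand setting, the annotation release and the handling of duplicates were not given in the sources used here. Symbols, lengths and 3′ UTRs came from GENCODE v44 lifted to GRCh37, which matched 55665 identifiers. Genes with enough reads (filterByExpr of edgeR 4.0.16, minimum count 10, minimum total 15) were scaled by TMM and fitted with the robust quasi-likelihood method, with the siRNA as factor and Benjamini-Hochberg adjustment over 15099 genes. A standard error is the log2 fold change divided by the root of F. Alternative fits used DESeq2 1.42.0, with the Wald test, and voom from limma 3.58.1 (R 4.3.3, Python 3.11.15). The profile comparison added 0.5 to each count. Depth, 23603992 to 45098612 counts, sets a counting error that covers no other source. The fits were tested on simulated counts. No pair of libraries in a group agreed within sampling noise (chi-square per degree of freedom 27.7 to 141). The kinase genes, gene lists and tests were chosen with earlier results of these data known. Of the gene lists, 2 genes are not reported here and were left out of the counts of their lists. Named genes were the family, list members with an unadjusted p under 0.05 or the highest level per length in control, the nearest expressed neighbours, the copies of PIP5K1A and the 5 nearest profiles. Alternatives were other tools, scalings, filters, thresholds, the replicate block and single libraries left out, and, added after the data were seen, canonical transcript lengths.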

Additional observations from a re-analysis of the deposited data

How the results depend on the processing

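With all libraries, TMM, the filter and no block, edgeR called 0 genes in either direction at the thresholds used, while an unadjusted p under 0.05 was reached by 990 that were higher and 993 that were lower, and limma-voom called 0 as well (1007 and 974). DESeq2 called 84 genes higher and 75 lower, and edgeR without a filter on low counts 127 and 152; the cause was not tested. Leaving out single libraries gave 0 genes higher throughout and 0 to 1 lower, the 1 gene without control replicate 1. The replicate numbers 3 and 5 occur in both groups, but nothing says that they mark shared cultures, and the deviations of same-numbered libraries from their group means correlated at 0.53 and 0.09 over genes. In the replicate block, control replicate 1 and siRBM3 replicate 4 have no partner. The siRNA effect then rests on the libraries numbered 3 and 5, which leaves little to estimate the spread from. With the block, 145 genes were called higher and 191 lower, and the log2 fold change of PIP4K2A was 0.86. Of the relatives 1, PIKFYVE, was called with the block (log2 fold change 0.73) and without the filter (0.59), and 0 under the other settings, thresholds included. Of the other phosphoinositide genes 0 were called under any setting run. With library size only, the median log2 fold change of all genes was -0.06 in place of -0.01, and an unadjusted p under 0.05 was reached by 611 genes on the higher and 1130 on the lower side.

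The log2 fold change of each of the 6 kinase genes had 1 sign in all alternatives run. Of the other named genes 7 turned sign, for a cause that was not tested. The sign turned with library size only for CDIPT (-0.037) and PLCB3 (-0.013), with the block for INPPL1 (0.058), AKT1 (0.024) and PIP5KL1 (0.096), and without the filter for INPPL1 (0.0047). With single libraries left out, log2 fold changes ran from -0.063 to 0.076 for CDIPT, -0.14 to 0.41 for INPP4B, -0.092 to 0.089 for INPPL1, -0.077 to 0.13 for PLCB3, -0.20 to 0.050 for AKT1, -0.44 to 0.17 for PIP5KL1 and -0.12 to 0.0037 for MSRB2. Depth limits PIP5K1B, with 14 to 34 counts a library.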
